A study of Mus musculus with 2 samples.

Results

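The class I and class IIa histone deacetylases are 8 genes, Hdac1, Hdac2, Hdac3 and Hdac8 in class I and Hdac4, Hdac5, Hdac7 and Hdac9 in class IIa. EGR1 binding at these genes was read from a list of ChIP-seq peaks, in which DNA held by an antibody against the transcription factor EGR1 had been sequenced. A peak was assigned to a gene when its centre lay in the gene body or within 10 kb of a transcription start site (TSS) of any annotated transcript of that gene. By this rule 15 of the 12014 EGR1 peaks belonged to the histone deacetylases, 5 at class I genes and 10 at class IIa genes. The tissue was the frontal cortex of 6-week-old males, F1 hybrids of C57BL/6N fathers and 129SvEv mothers, with no treatment or mutation named in the labels. Cortices of 4 to 5 mice went into each of 2 ChIP experiments, and the deposited list is a single merged set of peaks found reproducible between them. For each peak the list gives a position on mm10 and an irreproducible discovery rate (IDR), which is low for a peak that ranks high and alike in both experiments. Read counts and the peaks of each experiment were not analysed here, so the depth behind a peak is unknown and there is no spread between replicates. Frontal cortex is a mixture of cell types, and binding in few cells cannot be told apart from weak binding in many. A list of peaks holds no expression values with which the tissue label could be checked.

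Histone deacetylases remove acetyl groups from lysines of histones and other proteins. HDAC1 and HDAC2 are nuclear enzymes that work inside the NuRD, SIN3 and CoREST corepressor complexes, HDAC3 works inside the NCoR complex, and HDAC8 is a class I enzyme that is not known as a subunit of these complexes. HDAC4, HDAC5, HDAC7 and HDAC9 have little deacetylase activity of their own, bind MEF2 factors and repress their targets, and leave the nucleus when calcium-dependent and related kinases phosphorylate them and 14-3-3 proteins bind them. In neurons, this shuttling follows synaptic activity, and HDAC2 is known for its part in memory. EGR1 is a zinc finger factor induced by neuronal activity that binds GC-rich DNA.

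The sequences below show the promoter peaks of Hdac2 and Hdac4 and, beside them, the internal peaks of Hdac5 and Hdac7 that hold EGR1-like letters. The last is the Hdac9 peak, which lies inside the annotated gene but upstream of the TSS of the protein-coding transcript Hdac9-201. All are mm10 reference sequence of C57BL/6J, not read from the hybrid mice. They are written 5′ to 3′ on the strand of the gene, with bases annotated as untranslated left out. Capitals mark the EGR1 motif, searched on both strands as GCGTGGGCG or GCGGGGGCG. In Hdac5 peak 3 the capitals are an exact match, and in the other sequences they differ from the motif at 1 base. Sites read as CGCCCACGC or CGCCCCCGC, or close to these, lie on the opposite strand.
Hdac2 peak 1, chr10:36974363-36974543 (plus strand): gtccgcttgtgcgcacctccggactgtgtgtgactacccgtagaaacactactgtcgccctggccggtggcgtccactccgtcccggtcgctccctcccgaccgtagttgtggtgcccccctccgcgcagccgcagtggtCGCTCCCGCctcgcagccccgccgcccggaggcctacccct
Hdac4 peak 1, chr1:92180342-92180535 (minus strand): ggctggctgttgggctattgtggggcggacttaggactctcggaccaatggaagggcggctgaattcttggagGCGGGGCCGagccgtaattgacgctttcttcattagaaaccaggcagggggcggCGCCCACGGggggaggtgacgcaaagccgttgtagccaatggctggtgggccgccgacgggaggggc
Hdac5 peak 1, chr11:102220578-102220827 (minus strand): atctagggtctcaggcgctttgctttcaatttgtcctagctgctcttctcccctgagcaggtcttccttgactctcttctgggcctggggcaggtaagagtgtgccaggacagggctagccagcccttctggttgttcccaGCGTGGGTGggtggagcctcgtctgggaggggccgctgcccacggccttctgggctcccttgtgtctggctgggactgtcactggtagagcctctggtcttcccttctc
Hdac5 peak 2, chr11:102201534-102201783 (minus strand): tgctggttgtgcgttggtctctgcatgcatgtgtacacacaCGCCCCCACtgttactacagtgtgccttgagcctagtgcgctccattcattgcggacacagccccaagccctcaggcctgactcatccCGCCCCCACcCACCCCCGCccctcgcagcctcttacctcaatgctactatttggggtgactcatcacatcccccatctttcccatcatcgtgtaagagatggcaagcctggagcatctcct
Hdac5 peak 3, chr11:102196118-102196237 (minus strand): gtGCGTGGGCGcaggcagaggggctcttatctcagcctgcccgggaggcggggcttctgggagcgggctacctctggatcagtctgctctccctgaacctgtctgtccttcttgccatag
Hdac7 peak 2, chr15:97812250-97812437 (minus strand): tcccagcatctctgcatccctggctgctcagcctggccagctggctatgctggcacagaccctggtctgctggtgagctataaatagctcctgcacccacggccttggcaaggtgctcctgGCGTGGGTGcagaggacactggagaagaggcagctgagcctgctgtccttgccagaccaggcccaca
Hdac9 peak 1, chr12:34529346-34529526 (minus strand): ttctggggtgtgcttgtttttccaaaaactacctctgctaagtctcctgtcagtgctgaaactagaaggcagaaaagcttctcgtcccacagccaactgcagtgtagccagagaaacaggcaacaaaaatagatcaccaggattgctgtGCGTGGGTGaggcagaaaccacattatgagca

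A peak was found at 6 of the 8 genes, while 39.6% of 21938 protein-coding genes had a peak by the same rule. Long genes offer more room, so the share was also taken by gene length. Of genes under 20 kb 31.3% had a peak, and Hdac3 (19.2 kb), the only histone deacetylase of this size, was among those with a peak. Of genes of 20 to 100 kb 45.2% had a peak, as did 3 of 4 histone deacetylases (Hdac2, Hdac5 and Hdac7, but not Hdac1). Of genes of 100 kb or more 61.6% had a peak, as did 2 of 3 histone deacetylases (Hdac4 and Hdac9, but not Hdac8). With 1 to 4 of the 8 genes in each length class, no difference from these shares can be read. With at least 2 peaks, a property of 13.7% of protein-coding genes, were 5 of the 8 genes, namely Hdac2, Hdac3, Hdac4, Hdac5 and Hdac7. This share was not taken by length. The share with 3 or more peaks, which of the 8 genes only Hdac3, Hdac4 and Hdac5 had, was taken instead. It was 2.87% under 20 kb, 4.87% at 20 to 100 kb and 13.9% at 100 kb or more. The peaks of Hdac3 were all nearest to a TSS of another gene. Within 2 kb of a TSS of its own, 5 of the 8 genes had a peak, against 29.6% of protein-coding genes. These were Hdac2, Hdac3, Hdac4, Hdac5 and Hdac9. Hdac5, with 18 TSS positions, was counted only through TSSs inside the gene, and the Hdac3 peak was nearer to Rell2. Genes with more TSSs offer more places for such a peak, and this share was not taken by number of TSSs. The classes differed in count, with 2 of 4 class I genes and 4 of 4 class IIa genes having a peak, but 4 genes a class are too few to set the classes apart.

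**Figure D1:**
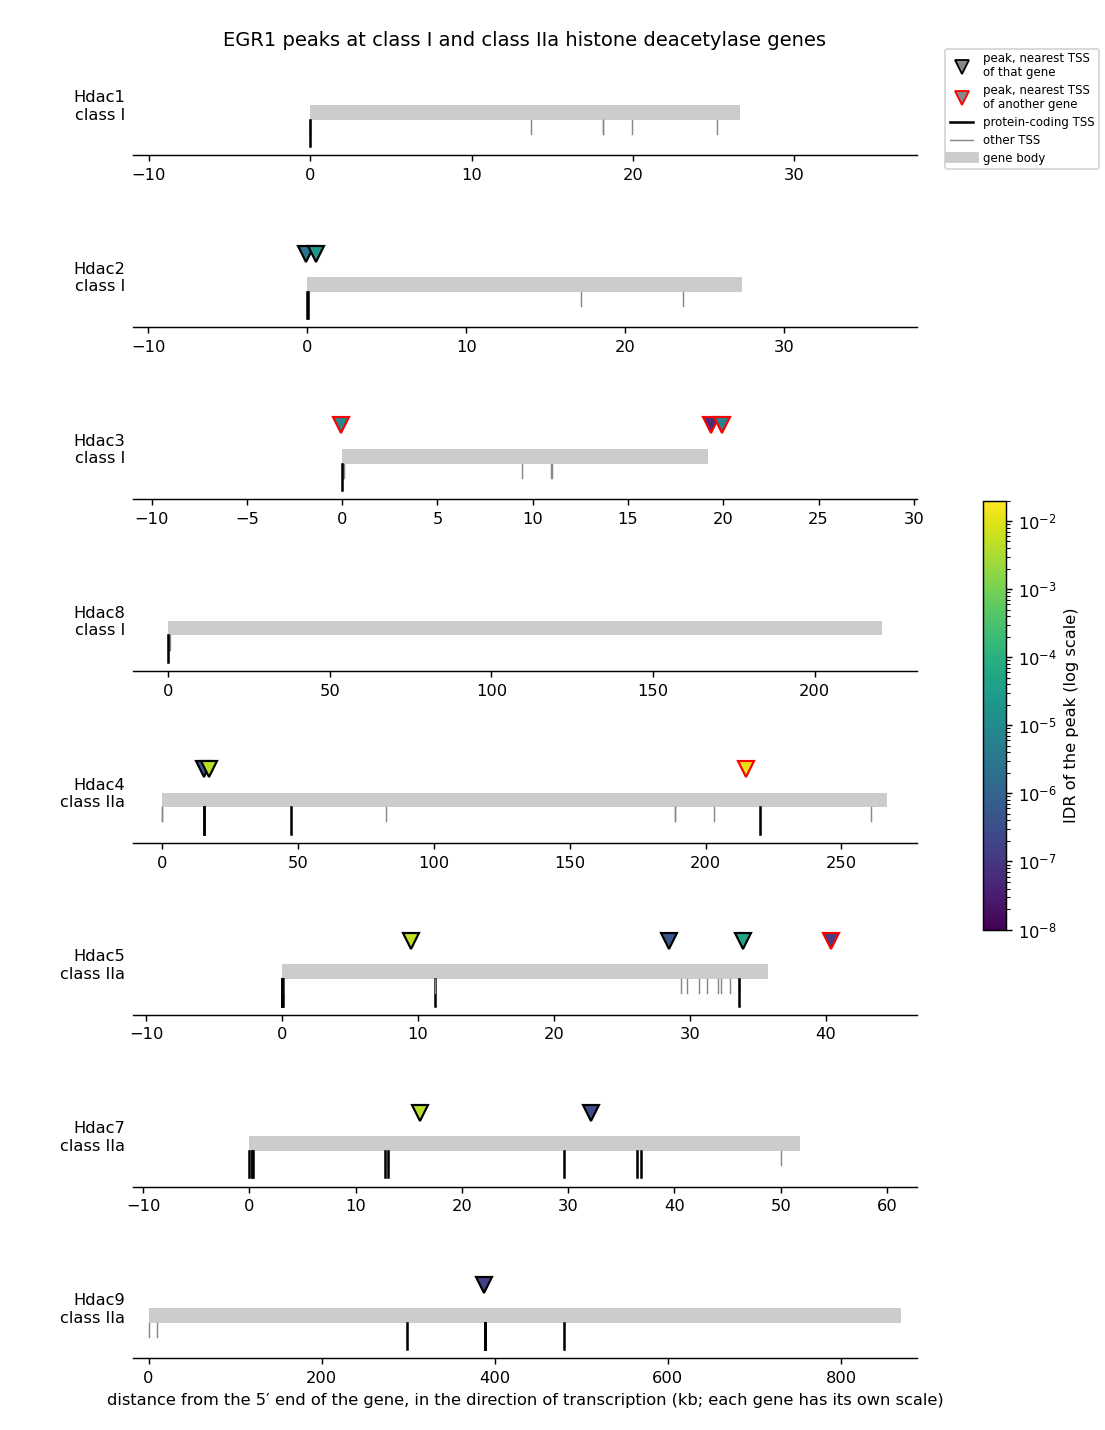
EGR1 peaks along the 8 histone deacetylase genes, by distance from the 5′ end of the gene in kb, with a scale of its own for each gene. Triangles are peaks coloured by IDR, with a red outline where the nearest TSS belongs to another gene. Grey bars are gene bodies, long black ticks are TSSs of protein-coding transcripts and short grey ticks are TSSs of other transcripts. Hdac1 and Hdac8 have no peak. The peak of Hdac9 lies 387659 bp from the 5′ end of the gene and 562 bp upstream of the TSS of the protein-coding transcript Hdac9-201.

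Of the class I genes, Hdac2 carried its peaks at its promoter. Peak 1, at chr10:36974363-36974568, had an IDR of 2.27e-06, which ranked 3034 among the 12014 peaks. Its centre lay 78 bp upstream of the TSS of Hdac2-201, the transcript that starts farthest 5′. It had the highest GC content and CpG ratio of the 15 peaks, at 72.8% and 1.06. The CpG ratio is the number of CpGs over that expected from the C and G content, and the sequence 5 kb to each side had a ratio of 0.21. Peak 2, at chr10:36974972-36975226, lay in intron 1, 529 bp downstream of the TSS of Hdac2-202, with an IDR of 2.15e-05. The centres of the pair were 633 bp apart. Neither peak held the exact EGR1 motif, but each held 2 sites with 1 mismatch, and in peak 2 the nearer site lay 1 bp from the centre.

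Hdac3, on chromosome 18, had 3 peaks by the rule, and none of them was nearest to an Hdac3 TSS. Peak 1, at chr18:37954988-37955164, had an IDR of 9.07e-06 and was centred 60 bp upstream of the Hdac3 TSS and 3 bp from a TSS of Rell2, which starts in the opposite direction. The peak was 177 bp wide, so the Hdac3 and Rell2 sides of this shared promoter cannot be told apart. Peaks 2 and 3 lay past the 3′ end of Hdac3, at chr18:37935556-37935805 and chr18:37934979-37935228. They were centred 205 bp and 277 bp from TSSs of Diaph1, which encodes a formin that nucleates actin filaments. They counted for Hdac3 only through TSSs of retained-intron transcripts inside the gene, the nearest of which, that of Hdac3-204, lay 8310 bp and 8887 bp away. Peak 2 had the lowest IDR of all 15 peaks (6.45e-08, rank 576) and peak 3 an IDR of 6.38e-06. Peak 3 held an exact EGR1 motif 12 bp from its centre.

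At Hdac1 and Hdac8 the list held no peak. The peak closest to Hdac1 was centred 13902 bp from its TSS, with an IDR of 7.81e-08, and lay 156 bp from a TSS of Lck, a tyrosine kinase gene known from T cells. It was thus 3902 bp beyond the reach of the rule. The peak closest to Hdac8, on the X chromosome, was centred 138916 bp from the Hdac8 TSS and 29 bp from a TSS of Phka1, which encodes a phosphorylase kinase subunit. Because the list holds only peaks with an IDR of 2% or less, binding below that limit at these genes would not be seen. Closer to the limit were peaks centred 10280 bp from a TSS of Hdac7 (IDR 0.0163), nearest to Vdr, and 10943 bp from a TSS of Hdac3 (IDR 0.000430), nearest to Diaph1. Farther out were peaks 14604 bp from a TSS of Hdac4 (IDR 6.97e-06), nearest to Gm37600, and 14854 bp from a TSS of Hdac5 (IDR 4.79e-05), nearest to BC030867. For Hdac2 and Hdac9 the next peaks lay 55550 bp and 88539 bp beyond the reach of the rule. Just inside, the peak farthest from a TSS of its gene was Hdac3 peak 3, at 8887 bp.

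Of the class IIa genes, Hdac4 had a peak at its main promoter. Peak 1, at chr1:92180272-92180535, was centred 63 bp upstream of the TSS of the protein-coding transcript Hdac4-202, with an IDR of 5.07e-07 (rank 2235). It held 3 sites with 1 mismatch to the EGR1 motif, of which the middle site lay at the centre, and 4 copies of GGGCGG, the core letters bound by SP and KLF factors. Its CpG ratio was 0.90, against 0.17 in the sequence 5 kb to each side. The first annotated TSS of the gene lies 15358 bp farther upstream, belongs to a transcript annotated as non-coding (a processed transcript) and was 15295 bp from the nearest peak centre. Peaks 2 and 3 were different in kind. Peak 2, at chr1:92178568-92178824 in intron 1, was 1601 bp downstream of the TSS of Hdac4-205, with an IDR of 0.00426 and a GC content of 43.6%. Peak 3, at chr1:91980715-91980968 in intron 12, had the highest IDR of the 15 peaks (0.0112, rank 10860) and the lowest GC content (39.4%). Neither held a site within 1 mismatch of the motif.

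Hdac5 had 4 peaks, more than any other gene of the 8, and 1.84% of protein-coding genes had 4 or more. None lay at its main promoter, where the TSSs of Hdac5-203 and Hdac5-204 were 9463 bp from the nearest peak centre. Peak 1, at chr11:102220578-102220827 in intron 2, had an IDR of 0.00485 and lay 1775 bp upstream of the TSS of the protein-coding transcript Hdac5-209. Peak 2, at chr11:102201534-102201783 in intron 13, had an IDR of 4.82e-07 and lay 843 bp upstream of a TSS of Hdac5-210, a retained-intron transcript. It held 3 sites with 1 mismatch and 2 copies of TGACTCA, the AP-1 letters bound by FOS and JUN, at 2 bp and 64 bp from the centre. An AP-1 pattern (TGANTCA) was present in 6.67% of the 15 peaks and in 6.48% of all EGR1 peaks. The share in all peaks was 3.83% with a TSS within 2 kb and 11.1% without. At 2 or more copies, a count not planned beforehand, the share of all peaks was 0.452%. Peak 3, at chr11:102196100-102196349 in intron 25, had an IDR of 5.35e-05 and lay 343 bp downstream of the TSS of the protein-coding transcript Hdac5-214, which starts near the 3′ end of the gene. Its exact motif, at chr11:102196227-102196235, was centred 6 bp from the centre of the peak and was the only copy of GCGTGGGCG in the 15 peaks. Peak 4, at chr11:102189632-102189879, lay past the 3′ end of Hdac5 and 1 bp from a TSS of G6pc3, which encodes a glucose-6-phosphatase catalytic subunit. It had an IDR of 1.7e-07 and an exact GCGGGGGCG 2 bp from its centre.

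Hdac7 had 2 peaks inside the gene and none within 2 kb of its TSSs. Peak 1, at chr15:97828282-97828531, lay 3087 bp downstream of the TSS of the protein-coding transcripts Hdac7-201 and Hdac7-205, with an IDR of 0.00427 and no site within 1 mismatch. Peak 2, at chr15:97812250-97812437, lay 2519 bp downstream of the TSS of Hdac7-208, with an IDR of 2.95e-07 (rank 1703). It had 2 CpGs in 188 bp and a CpG ratio of 0.11, the lowest of the 15 peaks, although its GC content was 62.2%. It held GCGTGGGTG 32 bp from the centre and CTATAAATAG 12 bp from the centre, which matches the pattern searched for MEF2 factors (CTA and TAG with any 4 letters between).

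Hdac9, the longest of the 8 genes at 870 kb, had a single peak. It lay at chr12:34529346-34529526, 562 bp upstream of the TSS of Hdac9-201 and 1132 bp upstream of the TSS shared by 4 other protein-coding transcripts. The 5′ end of the gene, 387659 bp away, had no peak near it. It is the start of a single transcript, Hdac9-210, which is not annotated as protein-coding. The peak had an IDR of 1.46e-07 (rank 1123), the lowest of the peaks that were nearest to a histone deacetylase TSS. Its GC content was 47.5% and its CpG ratio 0.20, close to the 0.15 of the sequence around it. The nearest other peak of the list was 570395 bp away.

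**Figure D2:**
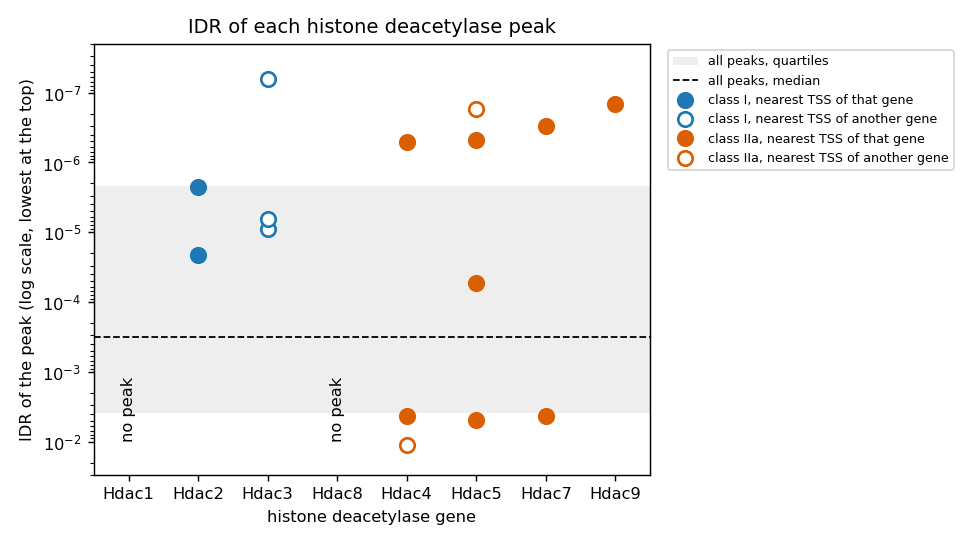
IDR of each of the 15 peaks by gene, on a log axis with the lowest IDR at the top. Filled circles are peaks whose nearest TSS belongs to that gene, open circles those nearest to another gene, and the band and dashed line are the quartiles and median of all 12014 peaks. Each of the 4 class IIa genes has a peak with an IDR of 5.07e-07 or less, while both peaks of Hdac2 lie at 2.27e-06 or above. The lowest IDR of the 15, 6.45e-08, is that of the class I peak Hdac3 peak 2, which is nearest to Diaph1. The median IDR is 6.38e-06 for class I peaks and 2.7e-05 for class IIa peaks.

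The 15 peaks spanned nearly the whole range of IDR in the list, from 6.45e-08 to 0.0112, with a median of 6.38e-06 against 0.000321 for all peaks. An IDR of 0.001 or less was seen in 11 of 15 (73.3%), against 59.6% of all peaks. All peaks of the list with a TSS within 2 kb had a lower median, 9.91e-05, and 66.3% of them had an IDR of 0.001 or less. The 10 peaks nearest to a histone deacetylase TSS had a median of 1.19e-05, with 7 of 10 (70.0%) at 0.001 or less. Of the 15, 11 had an IDR at or below 5.35e-05. The other 4, all intronic peaks of Hdac4, Hdac5 and Hdac7, were at 0.00426 or above. Between 0.0001 and 0.001 there was none of the 15, and 2059 peaks of the list. A TSS of any gene lay within 2 kb of 12 of the 15 (80.0%) and of 63.2% of all peaks. The rule itself takes peaks in or near genes, while all peaks include those far from any gene, so the 2 shares are not of like sets. Of the 15, 10 were nearest to a TSS of the histone deacetylase itself, and the other 5 to Rell2, Diaph1 (2 peaks), G6pc3 and Gm37048. Another peak lay within 1 kb for 4 of the 15 (26.7%), the pair at Hdac2 and the pair at Diaph1. The share was 14.3% of all peaks and 19.7% of all peaks with a TSS within 2 kb.

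Base composition is given by class as a description, with no test. Of the 5 class I peaks only the 2 of Hdac2 were nearest to a histone deacetylase TSS, and the 3 of Hdac3 lay at TSSs of Rell2 and Diaph1. The 5 class I peaks all had a TSS within 2 kb, a GC content of 61.0% or more and a CpG ratio between 0.65 and 1.06. Of the 10 class IIa peaks, only Hdac4 peak 1 (0.90) and Hdac5 peak 4 (0.77) lay in that range, and the other 8 had ratios from 0.11 to 0.43. The median ratio was 0.70 in class I, 0.29 in class IIa and 0.43 over the 15, beside 0.60 for all peaks, 0.76 for those with a TSS within 2 kb and 0.29 for those without. The ratio exceeded that of the sequence 5 kb away in 11 of the 15 (73.3%) and in 85.4% of all peaks. Of the 8 class IIa peaks with low ratios, 7 lay between the quartiles of peaks without a TSS within 2 kb (0.18 and 0.44), although 5 of the 8 had a TSS within 2 kb. Where the IDR did not exceed 1e-06, the CpG ratio was under 0.25 in 2 of 6 histone deacetylase peaks, Hdac7 peak 2 and Hdac9 peak 1. Over the whole list the share within these bounds was 6.37%. The bounds follow no rule set beforehand, and 6 peaks are too few to set against that share.

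**Figure D3:**
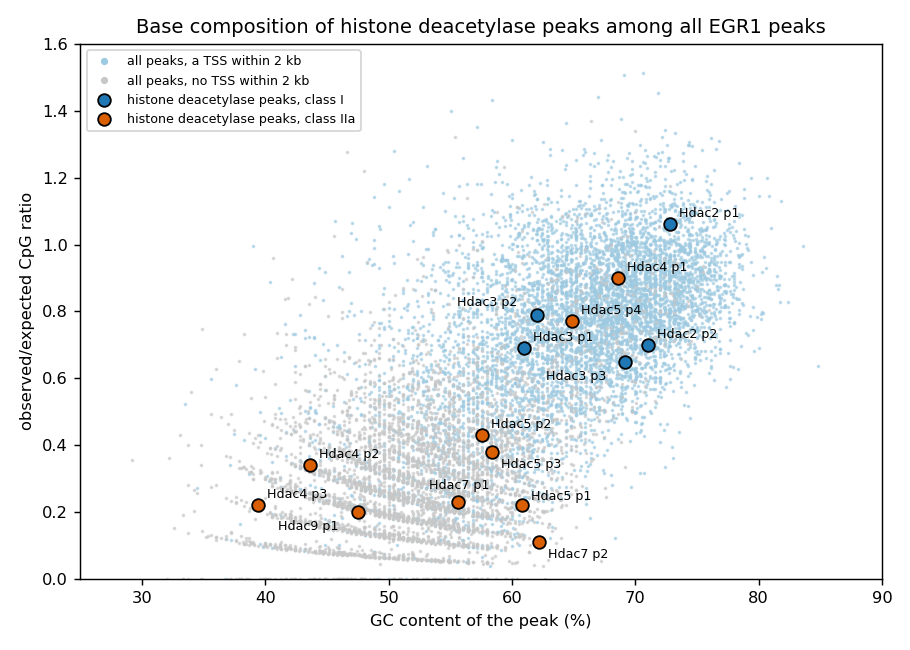
CpG ratio (observed over expected) against GC content in percent for the 15 histone deacetylase peaks (large circles, blue for class I and orange for class IIa; p1 is peak 1 and so on) and for all EGR1 peaks on assembled chromosomes (small points, light blue with and grey without a TSS within 2 kb). The peaks of Hdac2, the peaks at the Rell2 (Hdac3 p1), Diaph1 (Hdac3 p2 and p3) and G6pc3 (Hdac5 p4) starts and the promoter peak of Hdac4 lie at ratios of 0.65 or more, and the other class IIa peaks at 0.43 or less.

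The exact EGR1 motif was present in 3 of the 15 peaks, or 20.0% (95% Wilson interval 7.05% to 45.2%, counting error only), against 16.6% of the 11938 peaks on assembled chromosomes. The share in all peaks was 22.2% with a TSS within 2 kb and 6.87% without. Of the 3 peaks, those past the ends of Hdac3 and Hdac5 held GCGGGGGCG and Hdac5 peak 3 held GCGTGGGCG. With 1 mismatch allowed, 12 of the 15 (80.0%) held a site, against 69.8% of all peaks. That share in all peaks was 81.6% with a TSS within 2 kb and 49.1% without. The peaks without such a site were Hdac4 peaks 2 and 3 and Hdac7 peak 1, which are 3 of the 4 with an IDR over 0.001. The letters GCGTGGGTG were present in 3 of the 15 peaks, Hdac5 peak 1, Hdac7 peak 2 and Hdac9 peak 1, each time on the strand of the gene, as the capitals in the sequences above show. These letters were picked out after the sites were seen. They occurred in 4.72% of all peaks, in 3.42% of those with a TSS within 2 kb and in 6.98% of those without, and ranked 4 by frequency among the 50 letter strings that lie 1 mismatch from the motif. The letters GCGGGGCCG were also present in 3 of the 15 peaks, at the Hdac3, Hdac4 and G6pc3 promoters, and occurred in 4.63% of peaks with a TSS within 2 kb and 0.392% of those without.

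**Figure D4:**
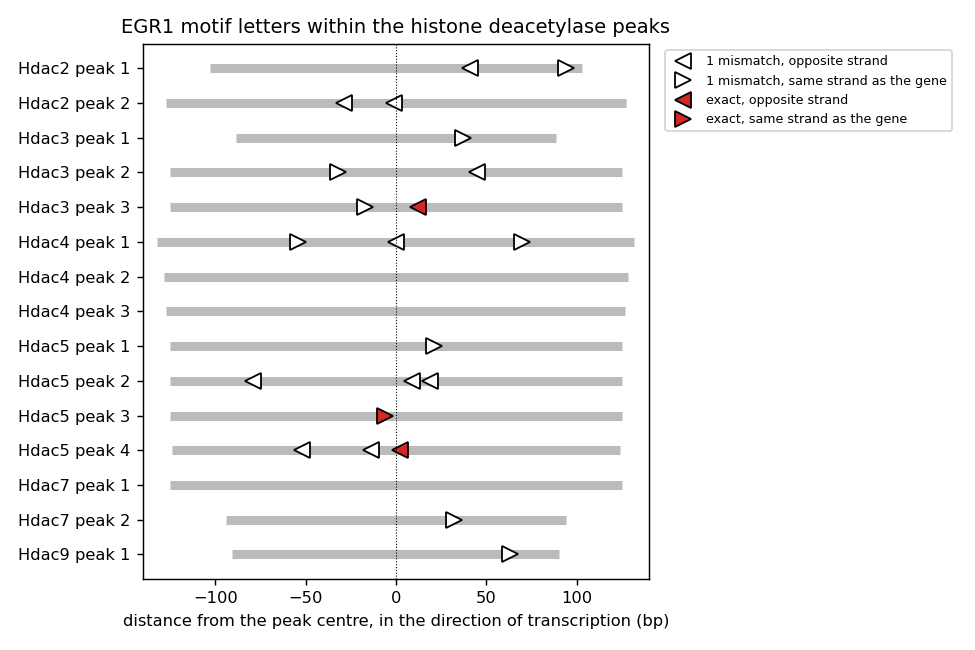
Sites within 1 mismatch of the EGR1 motif in each of the 15 peaks, by distance from the peak centre in bp in the direction of transcription of the gene. Grey bars are the peaks, filled triangles exact matches and open triangles sites with 1 mismatch, and a triangle points right where the site is on the strand of the gene. The 3 exact sites lie within 12 bp of the centre, and 3 peaks hold no site.

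Other short motifs, each searched on both strands, were compared in the same way. GGGCGG, which can overlap the last letters of the EGR1 motif, was present in 8 of the 15 peaks (53.3%) and in 55.8% of all peaks. It was present in 5 of 5 peaks at class I genes and 3 of 10 at class IIa genes. The share in all peaks was 71.5% with a TSS within 2 kb and 28.3% without. Such a TSS was present for all 5 class I peaks and 7 of the 10 class IIa peaks. The cAMP response element TGACGTCA was present in none of the 15 and in 1.30% of all peaks. The E-box CACGTG was present in Hdac3 peak 2 alone and in 7.46% of all peaks, and AP-1 in Hdac5 peak 2 alone. The MEF2 pattern was present in 3 peaks, Hdac2 peak 1, Hdac3 peak 1 and Hdac7 peak 2, and in 2.37% of all peaks. MEF2 factors bind sites with A and T in the middle, and of the 3 only Hdac7 peak 2 had such letters, which 0.436% of all peaks shared.

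RefSeq promoter windows on mm10, from 250 bases before to 50 bases after a start, were matched for 6 of the 8 genes (10 windows, for Hdac2, Hdac4, Hdac5, Hdac7, Hdac8 and Hdac9). A peak overlapped the window of Hdac2 and that of Hdac4 and none of the other 8. None of the 10 windows held the exact EGR1 motif, which was present in 3.47% of 32851 windows. The CpG ratio was 1.01 in the window of Hdac2 and 0.98 in that of Hdac4, and of the 8 windows without a peak only that of Hdac7 with a start at the 5′ end of Hdac7-202 reached these values (1.09). The window of Hdac8 had a CpG ratio of 0.33 and that of Hdac5 0.66.

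Lists were also taken of other deacetylases, of histone acetyltransferases, and of complexes and regulators that work with these deacetylases. Over all these lists, 63 of the 76 genes (82.9%) had a peak by the same rule, against the 39.6% of all protein-coding genes. This is thus not a share of partner genes alone, and the lists were chosen with earlier results of these data known. In some of these genes, among them Ing2, Arid4a, Brms1 and Mef2b, the lowest-IDR peak was nearest to a TSS of another gene. By length, 22 of 25 list genes under 20 kb, 32 of 35 of 20 to 100 kb and 9 of 16 of 100 kb or more had a peak, or 88.0%, 91.4% and 56.2%. The last share was near, and below, the 61.6% of all genes of that size. Of the deacetylases outside the 2 classes, Hdac6, a cytoplasmic tubulin deacetylase, had a peak 206 bp from its TSS with an IDR of 1.82e-07. Hdac10 and Hdac11 also had peaks, that of Hdac10 nearest to Tubgcp6. All 7 sirtuins, the NAD-dependent deacetylases, had a peak within 2 kb of a TSS, although those of Sirt2, Sirt3 and Sirt7 were nearest to a TSS of a neighbouring gene. The lowest IDR of this list was 1.73e-07, at Sirt6, 65 bp from its TSS. The Sirt1 peak, 58 bp from its TSS, held 2 copies of the exact motif at an IDR of 3.02e-07.

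By the 10 kb rule, most genes of the corepressor complexes of the class I enzymes had a peak. In NuRD 11 of 12 genes had a peak, all but Mta3, and 8 of 12 had one within 2 kb of a TSS. The lowest-IDR peaks of Mta1, Mta2 and Mbd3 were nearest to Crip2, Tut1 and Uqcr11. The lowest IDRs in NuRD were 3.75e-08 at Mbd2, a methyl-CpG binding subunit, 5.32e-08 at Chd5, whose peak was nearest to Gm13645, and 5.9e-08 at Chd4, the remodelling ATPase, whose peak was 3 bp from a TSS. In SIN3 10 of 11 had a peak, all but Sap30, and 9 of 11 had one within 2 kb of a TSS. The peak with the lowest IDR there, 7.29e-08 at Suds3, was nearest to Taok3, while that of Ing1, a reader of histone methylation, lay 66 bp from its own TSS with an IDR of 2.17e-07. The scaffold gene Sin3a had 4 peaks within 2 kb of its TSSs. In CoREST 7 of 8 had a peak, all but Phf21a, and 6 of 8 had one within 2 kb of a TSS. Kdm1a, the histone demethylase of the complex, had an IDR of 1.74e-07 at 26 bp from its TSS, and the scaffold gene Rcor1 had an IDR of 5.09e-07 at 119 bp with an exact motif.

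In NCoR, the complex of HDAC3, 2 of 4 had a peak. The corepressor gene Ncor1 had 2 peaks, the lower IDR being 0.00355 at 3302 bp from a TSS. Tbl1x and Tbl1xr1 had none, and the lowest-IDR peak of Gps2 (1.05e-08) was nearest to Eif5a. Of the acetyltransferases, which add the mark that the deacetylases remove, 7 of 9 had a peak and Kat5 and Kat6a had none. The lowest IDR was 2.34e-08 at Kat7, 122 bp from a TSS and with an exact motif, and the coactivator genes Ep300 and Crebbp had IDRs of 1.48e-06 at 43 bp and 3.94e-05 at 129 bp.

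Of the MEF2 factors, the partners of the class IIa enzymes, 3 of 4 had a peak and Mef2a had none. Mef2d had 5 peaks, the lowest IDR being 3.63e-07 at 7985 bp from a TSS. Mef2c had 2, of which the peak with the lower IDR (5.1e-05) lay 40 bp from a TSS and held an exact motif. Of the kinases known to phosphorylate class IIa enzymes 8 of 11 had a peak. Only Camk2b, with an IDR of 2.32e-07 at 274 bp, and Sik1 had one within 2 kb of a TSS. The lowest-IDR peaks of Camk2d, Prkd2 and Camk2g were nearest to Gm15551, Dact3 and Ndst2. Camk2d (250 kb) and Prkd1 (308 kb) had a single peak each, 73190 bp and 110648 bp from a TSS of their own. Of all protein-coding genes of 100 kb or more 61.6% had a peak. Camk2a, the abundant forebrain CaM kinase, had 3 peaks, the lowest of them 3747 bp from a TSS with an IDR of 1.9e-08 (rank 116). Camk4, Prkd3 and Sik2 had none. Of the 14-3-3 genes 5 of 7 had a peak, among them Ywhab with an IDR of 7.11e-08 at 65 bp and Ywhag with an IDR of 1.5e-07 at 54 bp, and Sfn and Ywhaq had none.

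**Figure D5:**
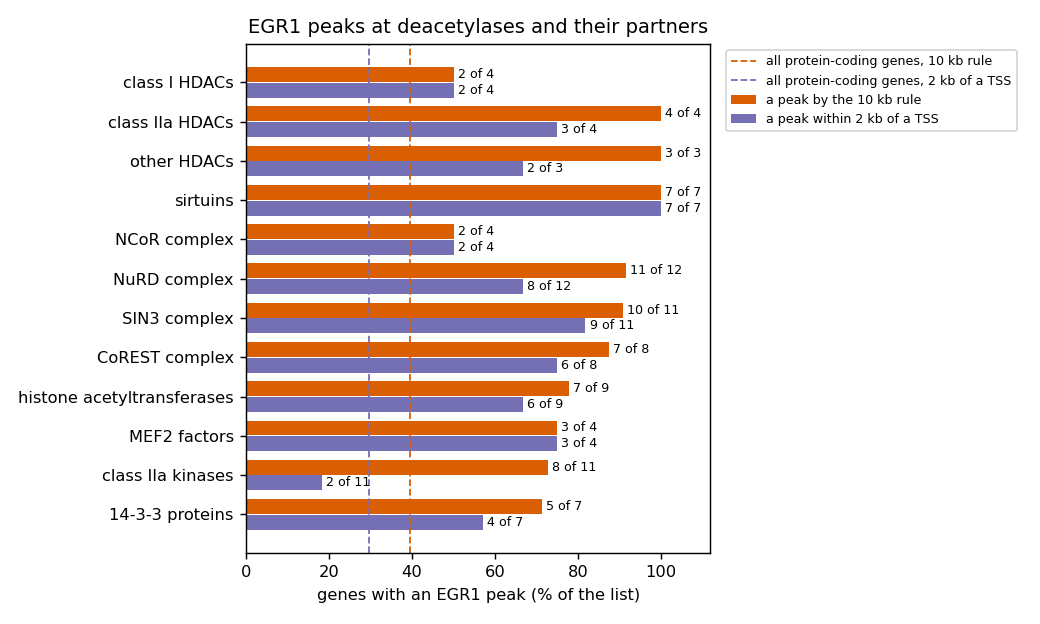
Share of genes with an EGR1 peak in each list, in percent of the genes listed, with the counts beside the bars. Orange bars count peaks in the gene body or within 10 kb of a TSS and purple bars peaks within 2 kb of a TSS, and dashed lines are the shares of all protein-coding genes, 39.6% and 29.6%. The kinases of class IIa enzymes are the only list with a share of promoter peaks (2 of 11) under the dashed line.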

How the data were processed

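Mouse frontal cortex was profiled by EGR1 ChIP-seq in 2 experiments. After quality trimming, the authors aligned reads to mm10 with Bowtie (the submitters' processing notes name Bowtie2 2.2.9 and bedtools 2.26.0), used SPP to call peaks in each replicate and kept peaks at an IDR of 2% or less. The deposited IDR values are read like a q-value, and the deposited positions, read as in BED files and printed counted from 1, are of the merged replicates. The depth per peak is unknown and the input DNA was not analysed here.

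Peaks were assigned with GENCODE M21. Sequence results used the 11938 peaks on assembled chromosomes of GRCm38, leaving out 76 on scaffolds. With 1 list, no test was run, and the share of peaks with the EGR1 motif carries a 95% Wilson interval. All 8 genes, every peak of theirs and up to 4 genes a list were named by rule. Genes named beyond 4 were those without a peak or picked after their values were seen. Some genes of the lists are not reported here and are in no count over a list. The members and lists were chosen with earlier results of these data known. Alternatives were other distances, annotations, windows and IDR limits. Scripts, tested on simulated data, used Python 3.11.15, numpy 2.4.6, pandas 2.3.3 and matplotlib 3.10.9.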

Additional observations from a re-analysis of the deposited data

How the results depend on the processing

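Of 26 alternatives, 22 kept counts within 1.5 times and medians within their 95% order-statistic interval. With 50 kb instead of 10 kb from a TSS the 8 genes had 23 peaks instead of 15, and Hdac1 gained a peak while Hdac8 still had none. With 1 mismatch allowed, 12 peaks instead of 3 held the EGR1 motif. Over all annotated genes, 23.0% instead of 39.6% had a peak. With only A and T in the middle, an alternative chosen after seeing the data, 1 peak instead of 3 held the MEF2 pattern. Counting only peaks nearest to a TSS of the gene itself left 10 peaks at 5 genes and took away all 3 of Hdac3, and with protein-coding transcripts only 13 peaks were left. No replicate could be left out, since the list merges both experiments, and no paired analysis was possible because the result comes from no test. Binding above the IDR limit, and its strength, were not seen at the depth of these libraries.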
